A study of Mus musculus with 4 samples.

Results

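The interleukin 1 family, its decoys and the inflammasome were followed through the leukocytes of the inflamed muscularis, using 10 genes out of the 16308 genes in the count tables. The genes were chosen by name and not by their values: the ligands Il1a, Il1b, Il1f9 and Il18, the antagonist Il1rn, the decoys Il1r2 and Il18bp, the co-receptor Il1rap, and the inflammasome genes Nlrp3 and Casp1. All 10 were measured. Single cells were sequenced in droplets from CD45+ leukocytes sorted from the muscularis of the small intestine, the outer muscle layer of the gut, after surgical handling of the bowel (intestinal manipulation). The 4 groups were WT mice (C57BL/6J) at 24 h and at 72 h post-injury and CCR2 KO mice (B6.129S4-Ccr2tm1Ifc/J) at 24 h and at 72 h post-injury. All mice were 12 weeks of age, every group had undergone the surgery, and no unoperated mice were analysed here. CCR2 is the chemokine receptor that lets monocytes leave the bone marrow, and the KO lacks it in every cell of the body rather than in monocytes alone.

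Each group was 1 library pooled from 3 to 4 mice, so there was no replicate and no test. The p-value of any difference is therefore unknown, and all intervals are exact 95% intervals that cover counting error only. UMIs (unique molecular identifiers, each standing for 1 captured transcript) were summed over the cells of a class and scaled to 1000000 UMIs of that class, the unit called CPM here. After 12 non-immune cells had been removed 5799 remained, with 1674 and 1768 in the WT and CCR2 KO libraries at 24 h and 1315 and 1042 at 72 h. The median UMIs per cell were 12859, 3282.5, 12427 and 5016 in that order. Any pair of libraries shared at most 1 cell barcode. Cells were clustered without the 10 genes and named from markers, and "-like" means no more than that. Ccr2 was at 755 and 1063 CPM in Mφ-like cells (monocytes and macrophages) of WT at 24 h and 72 h and at 95.2 and 100 CPM in CCR2 KO, which sets the genotypes apart as labelled, although 3' tags need not come from the altered part of the gene.

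Interleukin 1β and interleukin 1α act through the same receptor, which recruits the accessory chain IL1RAP and the adaptor MyD88. Interleukin 1β and interleukin 18 are made as inactive precursors that caspase-1 cleaves once an inflammasome such as NLRP3 has assembled, whereas interleukin 36γ, encoded by Il1f9, signals through a related receptor. The family is restrained by the receptor antagonist encoded by Il1rn, which occupies the receptor without signalling, by the decoy receptor IL1R2, and by the interleukin 18 binding protein. Because precursors need to be processed and released, transcript levels do not give the amount of active cytokine.

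The genes lie in a few groups in the GRCm38 genome. Il1a (ENSMUSG00000027399.1) is at chr2:129299610-129309972 and Il1b (ENSMUSG00000027398.13) at chr2:129364570-129371139, both on the minus strand. Il1f9 (ENSMUSG00000044103.4) is at chr2:24186476-24193568 and Il1rn (ENSMUSG00000026981.15) at chr2:24336853-24351494, both on the plus strand. Il1r2 (ENSMUSG00000026073.13) is at chr1:40074079-40125231, Il1rap (ENSMUSG00000022514.14) at chr16:26581704-26730117, Nlrp3 (ENSMUSG00000032691.14) at chr11:59541568-59566956, Casp1 (ENSMUSG00000025888.5) at chr9:5298517-5307265 and Il18 (ENSMUSG00000039217.13) at chr9:50554827-50581840, all on the plus strand. Il18bp (ENSMUSG00000070427.4) is at chr7:102014885-102018690 on the minus strand.

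The 250 bases before the start site are shown for Il1a, Il1b and Il1rn, the 3 genes past 2-fold lower at 72 h than at 24 h in Mφ-like cells of CCR2 KO, from the RefSeq promoter entries of GRCm38.p6, which held all 10 genes in 13 entries. The first is chr2:129309973-129310222 on the minus strand, the second chr2:129371140-129371389 on the minus strand, and the third chr2:24345121-24345370 on the plus strand, 1 of 3 entries for Il1rn. Capitals mark matches on either strand to TATAAA, to TGANTCA, which is an AP-1 motif, or to a pattern of 10 bases called NF-κB-like here. This pattern is 3 G, 3 free bases, 2 T and 2 C in that order. It is not the NF-κB consensus itself, and a match to it need not match that consensus. No matches overlap.
Il1a: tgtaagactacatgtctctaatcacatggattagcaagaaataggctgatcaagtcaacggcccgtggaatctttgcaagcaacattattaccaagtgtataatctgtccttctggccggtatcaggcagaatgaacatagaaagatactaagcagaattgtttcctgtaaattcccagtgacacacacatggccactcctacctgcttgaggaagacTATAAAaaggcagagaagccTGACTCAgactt
Il1b: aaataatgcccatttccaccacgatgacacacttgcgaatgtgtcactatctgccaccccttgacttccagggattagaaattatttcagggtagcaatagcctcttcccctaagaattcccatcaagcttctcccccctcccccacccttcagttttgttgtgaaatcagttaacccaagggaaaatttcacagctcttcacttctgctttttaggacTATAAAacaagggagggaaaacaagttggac
Il1rn: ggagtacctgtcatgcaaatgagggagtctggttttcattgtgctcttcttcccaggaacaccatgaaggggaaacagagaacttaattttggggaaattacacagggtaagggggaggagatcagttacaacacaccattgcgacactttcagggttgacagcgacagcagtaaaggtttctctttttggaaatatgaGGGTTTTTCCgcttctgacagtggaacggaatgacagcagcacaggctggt
The TATAAA match began 32 bases before the start of Il1a and 31 bases before that of Il1b. It was found in 12.4% of all 32851 promoter windows of this length. A TGANTCA match, found in 6.75% of windows, began 12 bases before the start of Il1a. An NF-κB-like match, found in 4.65% of windows, began 51 bases before this start of Il1rn. Of the other entries of Il1rn, the one at the start of the annotated gene had a TGANTCA match 141 bases before its start. That entry had no NF-κB-like match, and the third had none of the motifs. A match is a description of letters and not a site shown to be bound.

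Over whole libraries, most of the family was higher in CCR2 KO. Il1b, the main pro-inflammatory ligand, was at 1993 CPM for WT and 8438 CPM for CCR2 KO at 24 h, and at 1365 and 3683 CPM at 72 h. Il1r2 was at 135 and 909 CPM at 24 h and at 70.4 and 397 CPM at 72 h, and Il1rn at 257 and 1528 CPM and at 71.3 and 349 CPM. Il18 had the opposite order, at 43.6 CPM in WT and 15.8 CPM in CCR2 KO at 24 h and at 38.8 and 18.3 CPM at 72 h. In these sums, 7 genes were past 2-fold higher and 1 was past 2-fold lower in CCR2 KO at 24 h, against 14.4% of all genes past 2-fold in either direction, and 6 were higher and 1 lower at 72 h, against 11.5%. From 24 h to 72 h, 2 genes were past 2-fold lower in WT, against 10.4% of all genes, and 8 were lower in CCR2 KO, against 10.7%.

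The makeup of the libraries differed in the same comparison. Mφ-like cells were 76.3% (74.2 to 78.4) of the WT library and 12.4% (10.9 to 14.1) of the CCR2 KO library at 24 h, and neutrophil-like cells 17.6% (15.8 to 19.5) and 72.7% (70.6 to 74.8). At 72 h Mφ-like cells were 65.8% and 12.5%, neutrophil-like cells 6.54% and 21.0%, and a cluster led by Siglecf, Egr3 and Cpa3 8.06% and 35.7%. That cluster stayed without a cell type name. It held Siglecf, an eosinophil marker, but its neutrophil markers summed to between 25380 and 37893 CPM over the libraries and its 5 eosinophil markers in the tables to between 321 and 682 CPM. Its 51 cells in CCR2 KO at 24 h also held mast cell markers at 1801 CPM, which were at 0 in both WT libraries and at 30.1 CPM in CCR2 KO at 72 h. Shares are of sorted and captured cells, in which fewer cells of one type and more of another cannot be told apart.

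When the class levels of WT at 24 h were weighted by the UMI shares that the classes had in CCR2 KO at 24 h, Il1b came to 8420 CPM, next to the 8438 CPM that had been measured. The ratio of CCR2 KO to WT was thus 4.23 in the libraries and 1.002 once the class shares were made equal. For Il1r2 the same step took the ratio from 6.73 to 1.06, for Il1rap from 6.78 to 1.30 and for Nlrp3 from 3.58 to 1.34. More remained for Il1f9, from 18.6 to 1.76, for Il1rn, from 5.94 to 1.65, and for Il1a, from 2.18 to 2.01. At 72 h the ratio of Il1b went from 2.70 to 0.704 and that of Il1rn from 4.90 to 1.29. Since the shares of the classes differed this much, the genes are described within classes from here on.

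**Figure D1:**
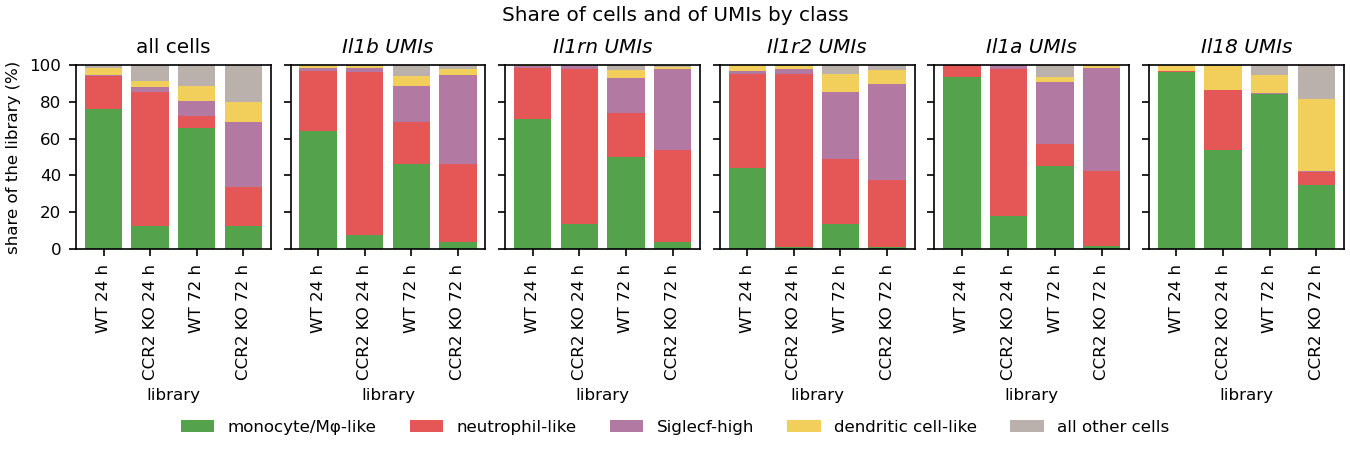
Share of all cells (left) and of the UMIs of 5 genes by class, in percent of each library; each stack is 1 library, named below it. Neutrophil-like cells gave 88.9% of the Il1b UMIs of CCR2 KO at 24 h and 32.8% of those of WT at 24 h.

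The source of Il1b transcripts moved between classes. Of the Il1b UMIs of WT at 24 h, 64.2% (63.7 to 64.7) came from Mφ-like cells and 32.8% (32.3 to 33.2) from neutrophil-like cells, which were 17.6% of the cells and held 3.43% of all UMIs. In CCR2 KO at 24 h the shares were 7.39% (7.22 to 7.57) and 88.9% (88.7 to 89.1). At 72 h the Siglecf-high cluster gave 19.5% (18.9 to 19.98) of them for WT and 48.8% (48.3 to 49.4) for CCR2 KO. Il1r2 was further towards neutrophil-like cells, with 51.2% of its UMIs there in WT and 94.2% in CCR2 KO at 24 h. Il1f9 came from neutrophil-like cells in every library, between 87.4% and 99.2% of its UMIs. Il18, at the other end, came mostly from Mφ-like cells in WT, 96.2% of it at 24 h and 84.5% at 72 h. In CCR2 KO at 24 h Mφ-like cells gave 53.7% of it and neutrophil-like cells 32.9%. In CCR2 KO at 72 h Mφ-like cells gave 34.7% of it and dendritic cell-like cells 39.2%.

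**Figure D2:**
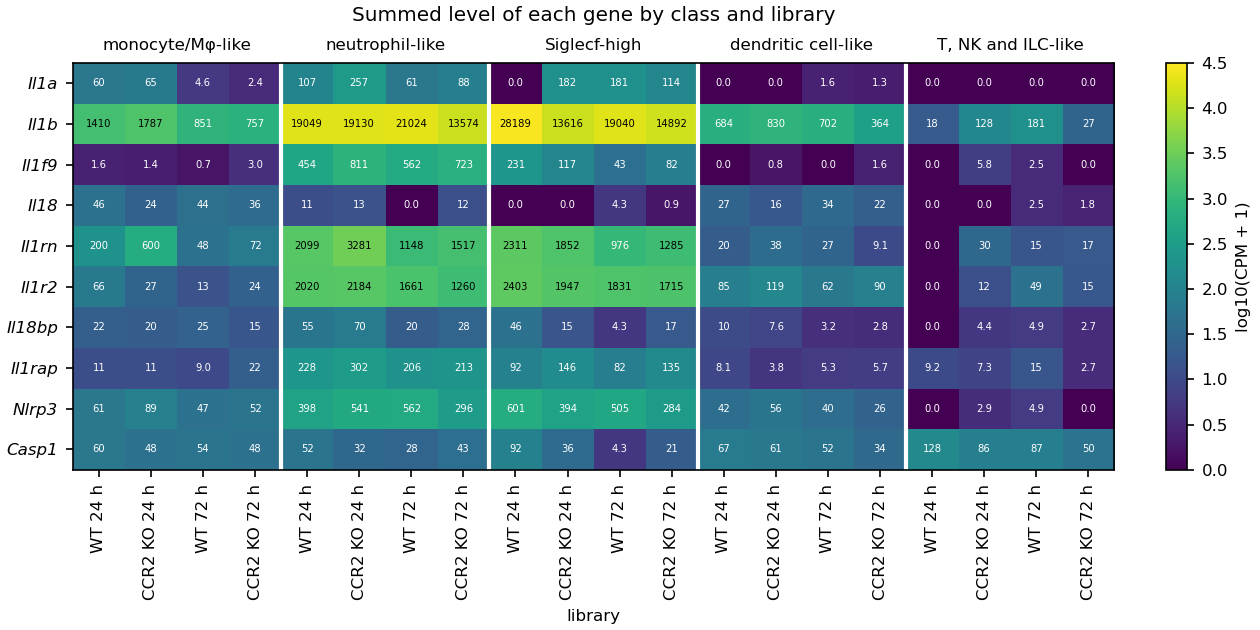
Level of the 10 genes (rows) in 5 groups of cells, each with its 4 libraries (columns); colour is log10(CPM + 1) and the printed number is the CPM. Il1b, Il1rn, Il1r2, Il1f9, Il1rap and Nlrp3 are high in the neutrophil-like and Siglecf-high columns, and Il18 is highest in the Mφ-like ones.

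Among the ligands, Il1b was the most abundant in each of the 4 libraries. In neutrophil-like cells its level was 19049 CPM (18733 to 19369) for WT and 19130 CPM (18996 to 19264) for CCR2 KO at 24 h, and at 21024 CPM (20457 to 21603) and 13574 CPM (13357 to 13792) at 72 h. Both 24 h values lay within each other's interval, and the CCR2 KO value at 72 h was below the other 3. When every cell was reduced at random to 1000 UMIs, between 96.2% and 100% of the neutrophil-like cells of a library kept at least 1 Il1b UMI. From cell to cell the 10th and 90th percentiles were 9495 and 31277 CPM in WT at 24 h, where the fold between them was the smallest of the libraries. They were 3395 and 24118 CPM in CCR2 KO at 72 h, where that fold was the largest.

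The Siglecf-high cluster was alike in Il1b, at 28189 CPM (25996 to 30517) and 13616 CPM (13005 to 14247) in WT and CCR2 KO at 24 h and at 19040 CPM (18482 to 19611) and 14892 CPM (14671 to 15116) at 72 h. The first of these rests on 13 cells. In Mφ-like cells Il1b was about an order lower in CPM, at 1410 CPM (1393 to 1427) for WT and 1787 CPM (1743 to 1831) for CCR2 KO at 24 h and at 851 CPM (835 to 868) and 757 CPM (716 to 800) at 72 h. Dendritic cell-like cells followed, at 684, 830, 702 and 364 CPM in the order WT and CCR2 KO at 24 h, then at 72 h. In WT at 72 h the dendritic cell-like value was close to the Mφ-like one, and no replicate gives a spread to set them apart. CPM are shares of the UMIs of a class and not UMIs per cell. The median depth was 2092 to 4760 UMIs in neutrophil-like cells and 10893 to 15777 UMIs in Mφ-like cells. In WT at 24 h, 294 neutrophil-like cells held 13847 Il1b UMIs and 1278 Mφ-like cells held 27141, so these classes lay closer per cell than in CPM.

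Free RNA from lysed cells can place UMIs in droplets of other cells, and cells with the markers of T, NK or innate lymphoid cells (called lymphoid cells here), which should not make Il1b, were used to gauge it. Il1b in these was at 18.4 CPM (2.22 to 66.3) and 128 CPM (102 to 157) at 24 h and at 181 CPM (141 to 227) and 27.3 CPM (18.4 to 38.9) at 72 h. After thinning, Il1b was found in 1 of 20 lymphoid cells of WT at 24 h and in 5.38%, 3.45% and 2.33% of those of the other libraries, in the order used above, and in 46.6%, 51.6%, 36.1% and 35.4% of Mφ-like cells. Before thinning the last 4 shares were 78.01%, 79.1%, 68.2% and 78.5%. The median depth was 4817 to 7330 UMIs in the lymphoid cells and 10893 to 15777 UMIs in Mφ-like cells. Other lymphoid groups were less even. Il1b was at 889 CPM (758 to 1037) in the 20 cells of an unnamed Trdc-high cluster of CCR2 KO at 24 h, where 5.26% of thinned cells held it, and at 379 CPM (315 to 453) in the 21 B cell-like cells of WT at 72 h, where 14.3% did. The Mφ-like levels in these libraries were 1787 and 851 CPM, and how much of them such UMIs make up was not tested. S100a8, an abundant neutrophil transcript, had 0.0254 UMIs per Il1b UMI in Mφ-like cells of CCR2 KO at 24 h and 1.49 in the neutrophil-like cells of that library. In WT at 24 h the same values were 0.319 and 2.30.

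Il1a, the ligand that is active without processing, was far lower than Il1b. In Mφ-like cells its level was 59.8 CPM (56.4 to 63.4) for WT and 65.5 CPM (57.4 to 74.3) for CCR2 KO at 24 h and at 4.56 CPM (3.45 to 5.92) and 2.38 CPM (0.647 to 6.08) at 72 h. Both 72 h libraries were far below both 24 h libraries. Few cells carried it, with 91.7% of its UMIs in the top 10% of Mφ-like cells of WT at 24 h and as many as 114 UMIs in 1 cell. In neutrophil-like cells Il1a was at 107 CPM (84.8 to 134) and 257 CPM (242 to 274) at 24 h and at 60.6 CPM (33.9 to 100) and 87.6 CPM (71.0 to 107) at 72 h. The CCR2 KO library at 24 h stood above the other 3. No Il1a UMI was seen in the lymphoid cells of any library, where a limit of 3 UMIs, used here for counts of 0 in place of an interval, comes to 27.5, 4.35, 7.42 and 2.73 CPM.

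Il1f9 was a transcript of neutrophil-like cells, at 454 CPM (406 to 506) for WT and 811 CPM (784 to 839) for CCR2 KO at 24 h and at 562 CPM (472 to 663) and 723 CPM (674 to 775) at 72 h. CCR2 KO was higher at both times, by less than 2-fold. In Mφ-like cells it was between 0.733 and 2.97 CPM, from 5 to 31 UMIs a library, and in dendritic cell-like cells between 0 and 1.58 CPM. The Siglecf-high cluster, which otherwise resembled neutrophil-like cells in the family, held less of it, at 231 CPM (75.02 to 539), 117 CPM (66.7 to 189), 43.2 CPM (20.7 to 79.4) and 81.8 CPM (66.2 to 100) in the order used above.

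Il18 was highest in Mφ-like cells among the classes set out here. It was at 46.2 CPM (43.2 to 49.3) for WT and 24.2 CPM (19.4 to 29.8) for CCR2 KO Mφ-like cells at 24 h and at 44.3 CPM (40.7 to 48.2) and 36.2 CPM (27.7 to 46.5) at 72 h. The CCR2 KO value at 24 h was the lowest, at a log2 ratio to WT of -0.93 (-1.27 to -0.62), just inside 2-fold. Dendritic cell-like cells were near, at 27.5, 15.9, 33.8 and 21.8 CPM. Neutrophil-like cells were at 11.01, 13.2, 0 and 11.7 CPM, where the limit of 3 UMIs for the 0 of WT at 72 h comes to 12.1 CPM.

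Il1rn, the antagonist, was, like Il1b, higher in neutrophil-like cells than in Mφ-like cells of every library. In neutrophil-like cells its level was 2099 CPM (1995 to 2207) for WT and 3281 CPM (3226 to 3337) for CCR2 KO at 24 h and at 1148 CPM (1018 to 1289) and 1517 CPM (1445 to 1591) at 72 h. In Mφ-like cells its level was 200 CPM (194 to 207) and 599.8 CPM (575 to 626) at 24 h and at 48.2 CPM (44.4 to 52.3) and 72.5 CPM (60.2 to 86.5) at 72 h. In both classes the order of the libraries was the same, with CCR2 KO at 24 h at the top and WT at 72 h at the bottom, although in Mφ-like cells the 2 libraries at 72 h changed places when cells were gated one by one on markers. After thinning, 39.5% (33.0 to 46.4) of Mφ-like cells of CCR2 KO at 24 h and 15.2% (13.3 to 17.3) of those of WT at 24 h had an Il1rn UMI, and at most 1.08% of lymphoid cells in any library did. Before thinning the shares in Mφ-like cells were 73.2% and 56.4%. The median depth of those cells was alike, at 15777 and 14575 UMIs.

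Il1r2, the decoy receptor, was a transcript of neutrophil-like cells and of the Siglecf-high cluster. It was at 2020 CPM (1918 to 2126) for WT and 2184 CPM (2139 to 2230) for CCR2 KO neutrophil-like cells at 24 h and at 1661 CPM (1504 to 1829) and 1260 CPM (1195 to 1328) at 72 h. The Siglecf-high cluster was in the same range, at 2403, 1947, 1831 and 1715 CPM. In Mφ-like cells Il1r2 was at 65.6 CPM (62.0 to 69.3) and 27.2 CPM (22.1 to 33.1) at 24 h and at 13.1 CPM (11.2 to 15.3) and 23.8 CPM (17.0 to 32.4) at 72 h, so WT at 24 h stood above the other 3 libraries. Dendritic cell-like cells, at 84.5, 119, 62.4 and 90.2 CPM, were higher than Mφ-like cells in all 4 libraries.

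Il18bp, which binds interleukin 18, was lower and more even. It was at 21.7 CPM (19.7 to 23.9) and 20.1 CPM (15.7 to 25.2) in Mφ-like cells at 24 h and at 24.7 CPM (22.0 to 27.6) and 14.9 CPM (9.61 to 21.9) at 72 h. In neutrophil-like cells its level was 55.0 CPM (39.3 to 74.9) and 70.1 CPM (62.2 to 78.7) at 24 h and at 20.2 CPM (6.56 to 47.1) and 27.99 CPM (19.02 to 39.7) at 72 h. Both 72 h values were the lower ones.

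Il1rap, the shared co-receptor, was at 228 CPM (195 to 266) and 302 CPM (285 to 319) in neutrophil-like cells at 24 h and at 206 CPM (153 to 271) and 213 CPM (187 to 242) at 72 h. In Mφ-like cells its level was 11.1, 11.001, 8.96 and 22.0 CPM, the last from 37 UMIs. The signalling receptor Il1r1 was between 0.326 and 2.03 CPM in Mφ-like cells, at most at 0.903 CPM in neutrophil-like cells, and between 18.2 and 43.5 CPM in lymphoid cells. The classes with the highest ligand levels thus had Il1r1 near 0.

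Of the inflammasome genes, Nlrp3, the sensor, was at 398 CPM (353 to 446) and 541 CPM (519 to 564) in neutrophil-like cells at 24 h and at 562 CPM (472 to 663) and 296 CPM (265 to 330) at 72 h. In Mφ-like cells its level was 60.9 CPM (57.5 to 64.5) and 89.1 CPM (79.7 to 99.4) at 24 h and at 47.0 CPM (43.2 to 51.0) and 52.3 CPM (41.9 to 64.4) at 72 h. Casp1, the protease, had another distribution. It was at 59.9, 48.4, 53.8 and 47.5 CPM in Mφ-like cells, at 52.3, 32.1, 28.3 and 43.3 CPM in neutrophil-like cells and at 128, 85.6, 86.6 and 49.97 CPM in lymphoid cells. Casp1 was thus the single gene of the 10 whose CPM was highest, in all 4 libraries, in the lymphoid cells when these 3 groups are compared. At 72 h in CCR2 KO, though, the intervals of all 3 met, as did those of lymphoid and neutrophil-like cells of WT at 24 h. The order is of CPM and need not hold for UMIs per cell, since lymphoid cells held fewer UMIs than Mφ-like cells, as given above. The adaptor Pycard, which joins the sensor to the protease, was at 658, 423, 305 and 349 CPM in Mφ-like cells and at 114, 81.6, 64.7 and 80.4 CPM in neutrophil-like cells.

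To describe how the CCR2 KO and WT libraries differed within a class, their CPM were compared. A gene was counted when the ratio was at least 2-fold and its mean over both libraries at least 10 CPM. In Mφ-like cells at 24 h, 9 of the 10 genes could be counted and 2 were past 2-fold, against 3.81% of all genes. Il1rn was higher in CCR2 KO, at a log2 ratio of 1.58 (1.51 to 1.66), and Il1r2 lower, at -1.27 (-1.58 to -0.97). Nlrp3 was at 0.55 (0.37 to 0.73) and Il1b at 0.34 (0.30 to 0.38). The median of the 9 was -0.02, beside -0.06 for all genes counted. When each cell had the same weight, Il1r2 was no longer past 2-fold.

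Other measures moved with this comparison. S100a8 was at 450 CPM in Mφ-like cells of WT at 24 h and at 45.4 CPM in those of CCR2 KO. Of 11 genes that respond to tissue handling, such as Fos and Jun, 2 were past 2-fold higher in CCR2 KO and 0 lower. Their median log2 ratio was 0.27, beside -0.06 for all genes counted, and their part in the differences was not tested. The cells also came from different clusters, since the cluster led by Chil3, Vcan and Gm9733 held 41.3% of them in WT and 21.8% in CCR2 KO, the one led by Ppbp, Ccl7 and Spp1 49.2% and 47.3%, and the one led by Lilra5, Mmp13 and Ch25h 1.96% and 23.6%. Within these clusters Il1rn was at 164 and 415 CPM, at 233 and 844 CPM and at 356 and 237 CPM in WT and CCR2 KO, in that order, so it was higher in CCR2 KO in the first 2 and not in the third. Il1r2 was at 148 and 76.1 CPM in the first, at 12.04 and 11.9 CPM in the second and at most at 1.28 CPM in the third. Il1b was at 2199 and 3955 CPM in the first cluster and at 933 and 1354 CPM in the second.

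In neutrophil-like cells at 24 h all 10 genes could be counted and 1 was past 2-fold, against 9.44% of all genes. That gene was Il1a, at a log2 ratio of 1.26 (0.93 to 1.61). Il1f9 followed at 0.84 and Il1rn at 0.64 (0.57 to 0.72), Casp1 was at -0.70 (-1.23 to -0.14), and Il1b was at 0.01 (-0.02 to 0.03). A cluster of 58 cells led by Lcn2, Chil1 and Wfdc21 came almost wholly from WT at 24 h, with 56 cells, and without it 3 of the genes were past 2-fold. The share of all genes past 2-fold without that cluster is not given here. The cluster led by Gm13822, Ifit3b and Slfn4 held 18.03% of the neutrophil-like cells of WT and 43.2% of those of CCR2 KO. The one led by Il1f9, Hcar2 and Asprv1 held 5.78% and 21.6%, and the part of these cluster shares in the differences was not tested.

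At 72 h, in Mφ-like cells, 8 genes could be counted and 1, Il1rap, was past 2-fold, at a log2 ratio of 1.29 (0.72 to 1.84), against 6.71% of all genes. It rests on 37 UMIs in CCR2 KO and 110 in WT, and adding 5 CPM to both levels takes the count to 0. Il1r2 was at 0.86 (0.32 to 1.36), the reverse of its direction at 24 h, and Il1rn at 0.59 (0.29 to 0.87), which turned to -0.13 when cells were gated one by one on markers. The Il1r2 value at 72 h rests on 40 UMIs in CCR2 KO, 10 of them in 1 cell. The class also held different clusters in the 2 libraries, with the Gal-led one at 50.1% of WT and 3.85% of CCR2 KO, the Ear2-led one at 29.0% and 2.31%, the Lilra5-led one at 5.78% and 47.7% and the Cxcl13-led one at 7.51% and 26.2%. In the same comparison 7 of 11 genes that respond to tissue handling, such as Fos and Jun, were past 2-fold lower in CCR2 KO, with a median log2 ratio of -1.15, and the median mitochondrial share was 5.84% in CCR2 KO and 4.31% in WT. The part of all these in the differences was not tested.

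In neutrophil-like cells at 72 h 9 genes could be counted and 0 were past 2-fold, against 13.4% of all genes. Nlrp3 came nearest, at a log2 ratio of -0.92 (-1.21 to -0.63), and Il1b was at -0.63 (-0.68 to -0.59), while Il1rn was at 0.40 (0.22 to 0.59). The median of the 9 was 0.36, beside -0.15 for all genes counted.

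**Figure D3:**
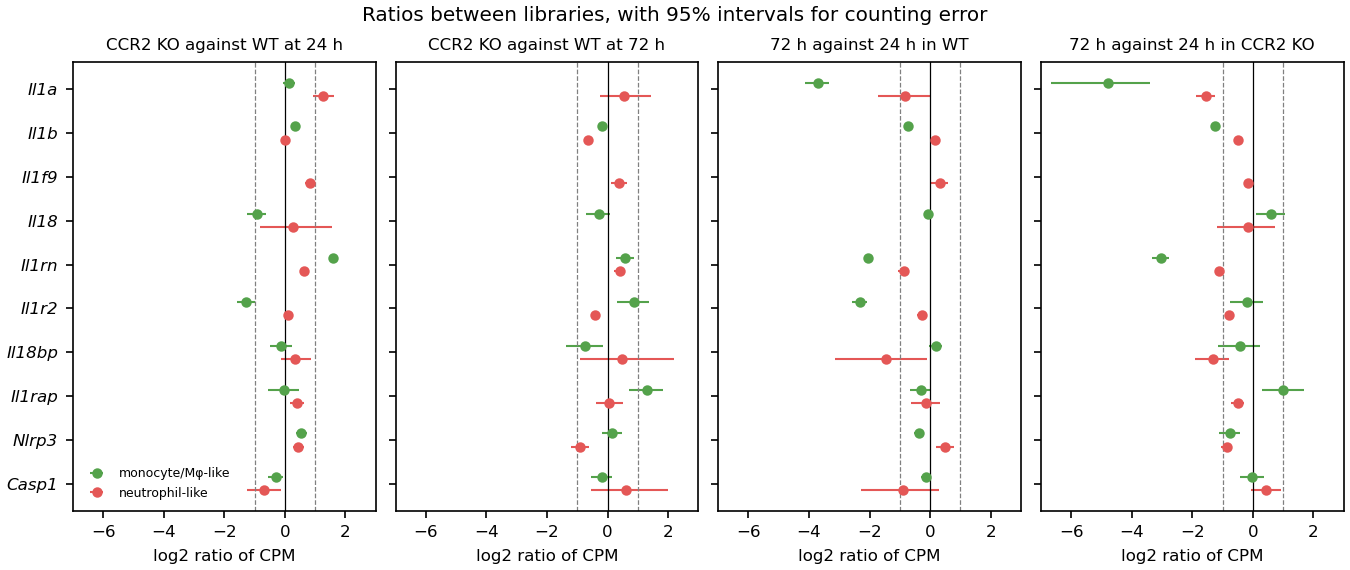
Log2 ratio of CPM for each gene in 4 comparisons, in Mφ-like (green) and neutrophil-like (red) cells; bars are exact 95% intervals of counting error, dashed lines mark 2-fold, and genes below a mean of 10 CPM are left out. Il1a in Mφ-like cells lies farthest to the left in both comparisons over time.

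To follow the family from the acute phase to recovery, 72 h was compared with 24 h in each genotype. These comparisons use the same 4 libraries as those between genotypes and are not independent of them. In WT Mφ-like cells 9 genes could be counted and 3 were past 2-fold, against 12.7% of all genes, and all 3 were lower at 72 h. The log2 ratios were -3.71 (-4.13 to -3.33) for Il1a, -2.32 (-2.57 to -2.08) for Il1r2 and -2.05 (-2.18 to -1.93) for Il1rn. Il1b was at -0.73 (-0.76 to -0.70), and Il18, at -0.06 (-0.22 to 0.10), and Il18bp, at 0.18 (-0.03 to 0.40), had intervals that held 0.

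In CCR2 KO Mφ-like cells 9 genes could be counted and 3 were again past 2-fold and lower at 72 h, against 13.7% of all genes. These were Il1a, at -4.78 (-6.67 to -3.41), Il1rn, at -3.05 (-3.32 to -2.79), and Il1b, at -1.24 (-1.33 to -1.15). Il1b left the count when cells had the same weight or when cells above 5% mitochondrial UMIs were left out. Il1r2 was at -0.20 (-0.76 to 0.35), where WT had been at -2.32. In the same comparison 3 of the 11 handling genes were past 2-fold lower, with a median log2 ratio of -0.90, and their part was not tested. Clusters turned over between the times, since in WT the clusters led by Gal, Selenop and Apoe and by Ear2, Axl and Mgl2 held 50.1% and 29.0% of the class at 72 h and 0.626% and 1.33% at 24 h.

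In neutrophil-like cells of WT 9 genes could be counted and 1 was past 2-fold, Il18bp at -1.45 (-3.14 to -0.10) from 5 UMIs at 72 h, against 20.2% of all genes, and Il1rn was at -0.87 (-1.06 to -0.69). TMM scaling takes this count to 4, but it shifted every gene by -0.21 on the log2 scale in this comparison. The share of all genes past 2-fold under TMM scaling is not given here. In CCR2 KO 10 genes could be counted and 3 were past 2-fold, all lower at 72 h, against 11.4% of all genes. The clusters had changed too, since the Gm13822-led one went from 43.2% of the class at 24 h to 6.39% at 72 h and the Retnlg-led one from 7.39% to 39.7%, and the summed neutrophil markers went from 75758 to 177564 CPM, and the part of these was not tested. The 3 genes were Il1a, at -1.56 (-1.87 to -1.25), Il18bp, at -1.32 (-1.91 to -0.79), and Il1rn, at -1.11 (-1.19 to -1.04), the last of which left the count when cells had the same weight. Nlrp3 was at 0.50 (0.20 to 0.80) over time for WT but at -0.87 (-1.04 to -0.70) for CCR2 KO.

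The balance of antagonist and ligand was given as the Il1rn UMIs per Il1b UMI, to be compared between samples and not as a molar ratio. In Mφ-like cells it was 0.142 (0.137 to 0.147) for WT and 0.336 (0.320 to 0.352) for CCR2 KO at 24 h and 0.0567 (0.0521 to 0.0616) and 0.0958 (0.0789 to 0.115) at 72 h. In neutrophil-like cells it was 0.110 (0.104 to 0.116) and 0.172 (0.168 to 0.175) at 24 h and 0.0546 (0.0483 to 0.0615) and 0.112 (0.106 to 0.118) at 72 h. In both classes it was higher in CCR2 KO than in WT at each time and lower at 72 h than at 24 h in each genotype. The genotype difference kept its direction in 11 of 11 alternatives in Mφ-like cells at 24 h, from 2.24 to 2.50 times, and in neutrophil-like cells at both times. In Mφ-like cells at 72 h it did so in 9 of 11, and it was turned, at 0.902 and 0.916 times, when cells above 5% mitochondrial UMIs were left out and when cells were gated one by one on markers. Among the 11, counting the Siglecf-high cluster as neutrophil-like and leaving out the Lcn2-led cluster could not alter Mφ-like cells. Adding a cluster of dividing cells to the Mφ-like class could not alter neutrophil-like cells. Equal cell weights were not among the 11, and none of the 11 held the shares of the clusters within a class fixed. The cluster led by Il1f9, Hcar2 and Asprv1, set out below, had much Il1rn for its Il1b. It held 5.78% of neutrophil-like cells in WT and 21.6% in CCR2 KO at 24 h, and 23.3% and 26.0% at 72 h. The part of these shares in the ratios was not tested. Dendritic cell-like cells had less antagonist for their ligand, between 0.0251 and 0.0457 in the 4 libraries.

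**Figure D4:**
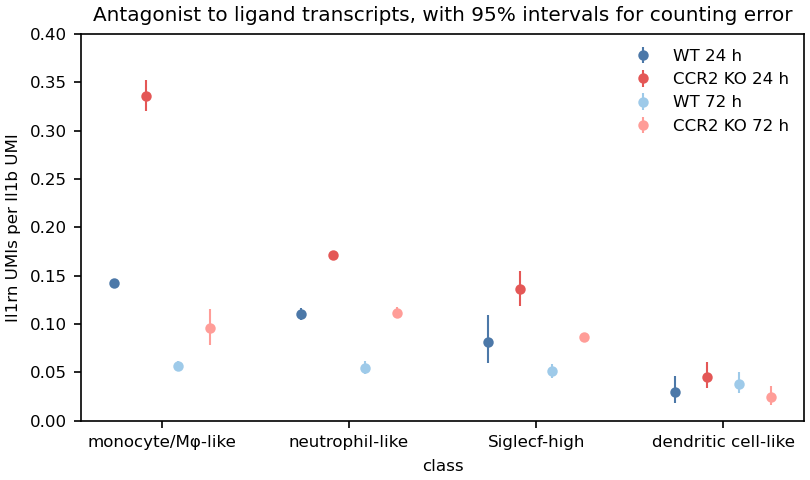
Il1rn UMIs per Il1b UMI (vertical axis) by class, 1 point per library; bars are exact 95% intervals of counting error. In the first 3 classes CCR2 KO (red) lies above WT (blue) at each time, and 24 h above 72 h in each genotype; in dendritic cell-like cells that order does not hold.

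Within the classes the genes were spread unevenly over clusters, which had been made without them, although Il1f9 turned out to lead one. Because clusters took different shares of their cells from each library, they were ranked within a library, over clusters with at least 20 cells there. Among neutrophil-like clusters, the one led by Il1f9, Hcar2 and Asprv1 had the most Il1rn in the 3 libraries in which it was large enough, at 5350 CPM (5203 to 5500) in CCR2 KO at 24 h, 3042 CPM (2588 to 3553) in WT at 72 h and 3476 CPM (3263 to 3700) in CCR2 KO at 72 h. In the same libraries it had the least Il1b, at 12160, 11269 and 8409 CPM, and the least Il1r2, at 928, 497 and 226 CPM. The cluster led by Retnlg, S100a9 and S100a8 had the least Il1rn in all 4 libraries, at 1108, 761, 577 and 454 CPM, although in both WT libraries its interval met that of the cluster led by Cxcr2, H2-Q10 and Lrg1. The Cxcr2-led cluster had the most Il1r2 in 3 libraries, at 2870 CPM in CCR2 KO at 24 h, 2062 CPM in WT at 72 h and 2137 CPM in CCR2 KO at 72 h, and in WT at 24 h the Retnlg-led cluster did, at 2301 CPM, but in both WT libraries the intervals of these clusters met. Antagonist and decoy were thus highest in different clusters in these 3 libraries. The Il1f9 level of the Il1f9-led cluster was 1579, 1473 and 1668 CPM in them, and its share of neutrophil-like cells went from 5.78% in WT at 24 h to 21.6% in CCR2 KO at 24 h, 23.3% in WT at 72 h and 26.0% in CCR2 KO at 72 h.

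Among Mφ-like clusters, the Chil3-led cluster had the most Il1b in the 3 libraries in which it was large enough, at 2199 CPM (2165 to 2233) and 3955 CPM (3821 to 4093) in the 24 h libraries of WT and CCR2 KO and 1499.8 CPM (1406 to 1599) in WT at 72 h, where the interval met that of the Ear2-led cluster. It also had the most Il18 in these libraries, at 57.2, 62.8 and 85.8 CPM. The Lilra5-led cluster had the least Il1b in 3 libraries, at 610 CPM in CCR2 KO at 24 h and at 363 and 339 CPM in WT and CCR2 KO at 72 h, and in WT at 24 h the Cxcl13-led cluster did, at 668 CPM, with an interval that met that of the Lilra5-led cluster. For Il1rn the order of the clusters differed between libraries. The Ppbp-led cluster was highest in CCR2 KO at 24 h, at 844 CPM (804 to 886), the Lilra5-led cluster in WT at 24 h, at 356 CPM (290 to 432) from 25 cells, the Chil3-led cluster in WT at 72 h, at 66.7 CPM (48.1 to 90.2), and the Cxcl13-led cluster in CCR2 KO at 72 h, at 103 CPM (53.1 to 180), and at 72 h these intervals met that of the next cluster. The Lilra5-led cluster, top in one library, was lowest in the other 3. In CCR2 KO at 72 h, though, only the Lilra5-led (62 cells) and Cxcl13-led (34 cells) clusters were large enough to be ranked for any gene. In CCR2 KO at 24 h only the Ppbp-led, Chil3-led and Lilra5-led clusters were.

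**Figure D5:**
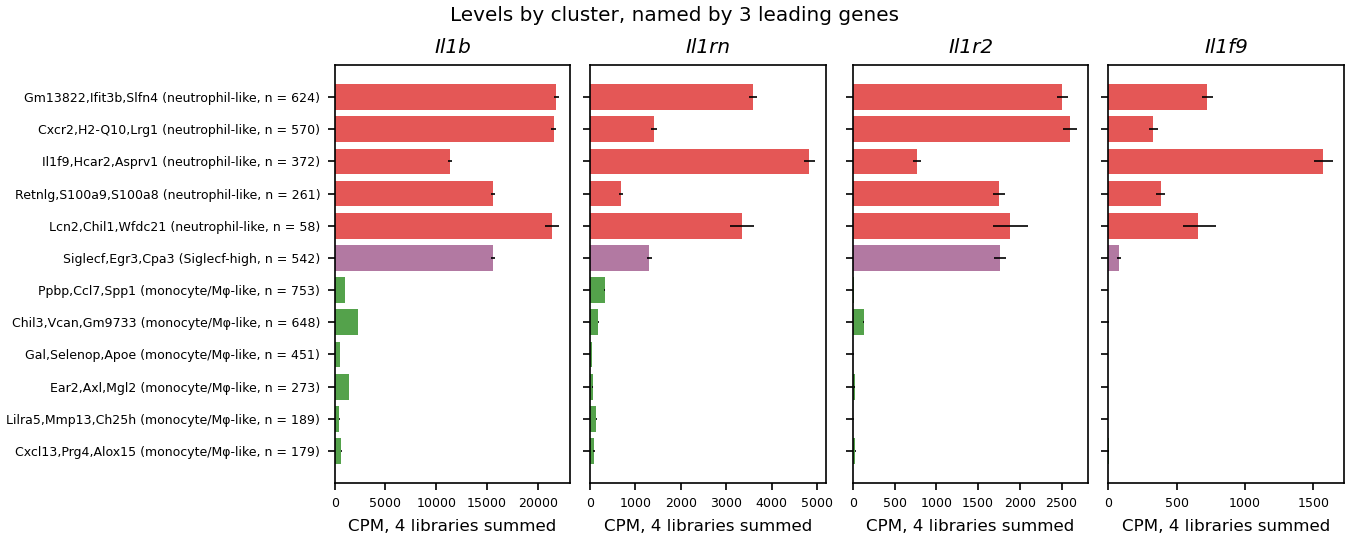
Level in CPM, over the 4 libraries summed, of 4 genes (panels) in the neutrophil-like (red), Siglecf-high (purple) and Mφ-like (green) clusters, each named by its 3 leading genes; bars end at exact 95% intervals of counting error and each axis starts at 0. Il1rn and Il1f9 peak in the Il1f9-led cluster, where Il1b and Il1r2 are lowest among the neutrophil-like ones; clusters took different shares from each library, and the order of the Mφ-like clusters in Il1rn did not hold within libraries.

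Within single cells, ligand, decoy and antagonist were set side by side after thinning. Of the 591 Mφ-like cells of WT at 24 h with an Il1b UMI, 47 also had an Il1r2 UMI (7.95%), against 2.66% of those without. The order was the same in the other 3 libraries, from 5, 5 and 2 cells with both. An Il1rn UMI was found in 17.4% of Mφ-like cells with an Il1b UMI and 13.3% of those without in WT at 24 h, in 38.7% and 40.4% in CCR2 KO at 24 h, in 6.17% and 1.83% in WT at 72 h and in 17.5% and 6.85% in CCR2 KO at 72 h, so 1 library had no such excess. In neutrophil-like cells an Il1f9 UMI was found in 36.4% of cells with an Il1r2 UMI and 49.4% of those without in CCR2 KO at 24 h, but the values were closer in the other libraries, at 32.1% and 34.3% in WT at 24 h, 30.8% and 27.3% in WT at 72 h and 41.7% and 43.0% in CCR2 KO at 72 h. Each share is of the cells of 1 library and carries no test.

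The genes most like a member were taken as those with the highest Pearson correlation of log2(CPM + 10) over 23 combinations of class and library with at least 30 cells, among 6166 genes with a mean of at least 20 CPM. The points share libraries and depth, so the values are descriptions. For Il1b these were Nlrp3 (0.99), Siglece (0.99), Il13ra1 (0.99), B430306N03Rik (0.98) and Gabarap (0.98). For Il1rn they were Cxcl2 (0.97), Clec4e (0.97), Ets2 (0.97), Hcar2 (0.97) and Slc7a11 (0.97), and for Il1r2 Ppp1r2 (0.95), F630028O10Rik (0.95), Adprh (0.95), Trem1 (0.94) and Lcp1 (0.94). For Il1f9 they were Gm5483 (0.98), Steap4 (0.97), Acod1 (0.97), Asprv1 (0.97) and Arg2 (0.97). Il18, whose own mean was 15.3 CPM, was closest to Psap (0.92), Pid1 (0.91), Dab2 (0.90), Tifab (0.90) and Tmem106a (0.90). Nlrp3 was the one member among these 25 genes.

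Of 40 further genes of the pathway, 25 could be counted in Mφ-like cells at 24 h, and 0 were past 2-fold higher and 2 lower in CCR2 KO, against 3.81% of all genes in either direction, with a median log2 ratio of -0.17 beside -0.06 for all genes counted. The 2 were Irak3, an inhibitory kinase of the receptor pathway, at -1.37 (-1.67 to -1.08), and the protease gene Prtn3. Irak3 was also past 2-fold lower in CCR2 KO neutrophil-like cells at 24 h, at -1.92 (-2.17 to -1.66), with 303 CPM for WT and 80.1 CPM for CCR2 KO, where 1 gene was higher and 1 lower of 25, against 9.44% of all genes. At 72 h, 0 were higher and 4 lower of 28 in Mφ-like cells, against 6.71% of all genes, the 4 being the feedback genes Zfp36, Tnfaip3 and Nfkbia, together with Prtn3, and 3 were higher and 1 lower of 25 in neutrophil-like cells, against 13.4%. Over time in WT Mφ-like cells, 4 were higher and 2 lower of 27, against 12.7% of all genes, among them Txnip, a partner of NLRP3, higher at 1.66 (1.59 to 1.73), Pycard, lower at -1.11 (-1.16 to -1.06), and Irak3, lower at -1.41 (-1.59 to -1.24). In CCR2 KO 4 were higher and 3 lower of 26, against 13.7%. In the Mφ-like comparison of genotypes at 72 h, 7 of 11 handling genes were past 2-fold lower in CCR2 KO too. All 4 feedback genes were past 2-fold lower in CCR2 KO dendritic cell-like cells at that time. The part of handling in these values was not tested.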

How the data were processed

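CD45+ cells of 4 pooled samples had been run on 10x 3' chemistry, and the authors aligned the reads to GRCm38/mm10 with Cell Ranger 3.0.2 and removed cells with under 200 genes or over 10% mitochondrial UMIs in Seurat. The deposited files hold raw UMI counts per gene and cell. Cells were normalised, clustered without the 10 genes (2000 variable genes, 30 components, Leiden resolution 1; scanpy 1.11.5, leidenalg 0.10.2, Python 3.11.15) and named from marker lists. Scrublet called 11 cells (0.19%), too few to have worked, so doublets were not removed. UMIs were summed per class and library and given as CPM with exact Poisson, binomial or conditional intervals (scipy 1.17.1). The intervals of the ratios were tried on simulated Poisson counts only. Such counts leave out the clumping of UMIs in few cells, so how well the intervals cover in these data was not tested. The total UMIs per library were 21206308 and 10411709 at 24 h and 16600493 and 9620609 at 72 h. PCR duplicates are removed by the UMIs. The text names all 10 genes, others only from a list of 40 pathway genes and 11 handling genes, the 5 genes closest to each of Il1b, Il1rn, Il1r2, Il1f9 and Il18, and the clusters with the highest and lowest level of a gene. S100a8 comes from the neutrophil marker list. The genes and lists were chosen with earlier results of these data known. Alternatives covered scaling (TMM, edgeR 4.0.16 in R 4.3.3), weights, filters, clustering and class borders. With 1 library per group, no library could be left out. Other settings of the authors' processing are not given in the sources used here.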

Additional observations from a re-analysis of the deposited data

Results flagged for a closer look

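Some differences had opposite directions in 2 groups, each with a counting interval that left out 0, and lay at least 1 apart on the log2 scale. The difference between the 2 values was not tested in any of them, since each group was 1 library. Il1r2 in Mφ-like cells had a log2 ratio of -1.27 for CCR2 KO over WT at 24 h and of 0.86 at 72 h. Nlrp3 in neutrophil-like cells had one of 0.44 at 24 h and -0.92 at 72 h, and over time it was at 0.50 in WT and -0.87 in CCR2 KO. In dendritic cell-like cells the log2 ratio, CCR2 KO over WT, was 0.28 at 24 h and -0.95 at 72 h for Il1b, and 0.90 and -1.56 for Il1rn, the last from 29 UMIs in CCR2 KO and 51 in WT. Few cells carried this Il1rn, with 96.6% of the UMIs of CCR2 KO at 72 h in the top 10% of dendritic cell-like cells, 17 of the 29 UMIs in 1 cell, and 16 of the 50 UMIs of CCR2 KO at 24 h in 1 cell. In the dendritic cell-like cells at 72 h, 6 of 11 handling genes were also past 2-fold lower in CCR2 KO, and their part in these values was not tested.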

How the results depend on the processing

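The 14 ratios past 2-fold within Mφ-like and neutrophil-like cells were recomputed under 15 alternatives, 5 of them chosen after seeing the data (the Siglecf-high cluster or the dividing cluster added to a class, and the Lcn2-led cluster, the cells over 2 times the median UMIs or the highest Scrublet scores left out), and in 205 of 210 cases they stayed past 2-fold in the same direction, with 0 turned. The 5 others were Il1r2 (CCR2 KO against WT at 24 h, Mφ-like), Il1b (over time in CCR2 KO, Mφ-like) and Il1rn (over time in CCR2 KO, neutrophil-like) with equal cell weights, Il1b again at no more than 5% mitochondrial UMIs, and Il1rap at 72 h with 5 CPM added. Some of the 210 cases could not have failed. Dropping the minimum level can only add genes to those counted. Adding the Siglecf-high cluster or leaving out the Lcn2-led cluster did not touch Mφ-like cells, and adding the dividing cluster did not touch neutrophil-like cells. Of 120 counts of genes past 2-fold, 103 stayed within 1.5 times and 17 did not, and the same cluster settings could not alter some of these counts. The share of all genes past 2-fold under each alternative is not given here, so the counts that follow have no background. In Mφ-like cells the count for CCR2 KO against WT at 24 h went from 2 to 1 with equal cell weights. At 72 h it went from 1 to 4 with equal cell weights, to 2 at no more than 5% mitochondrial UMIs, with the dividing cluster added, without cells over 2 times the median UMIs or with no minimum level, and to 0 with 5 CPM added. In neutrophil-like cells the count at 24 h went from 1 to 3 at Leiden resolution 2 or without the Lcn2-led cluster, and at 72 h from 0 to 1 with equal cell weights and to 2 with each library clustered alone. Over time in WT neutrophil-like cells it went from 1 to 4 with TMM scaling, and to 2 with each library clustered alone, at Leiden resolution 2, with the Siglecf-high cluster added, without the Lcn2-led cluster or without cells over 2 times the median UMIs. Of 1199 log2 ratios of the genes under an alternative, 127 lay outside the counting interval of the value reported. Among ratios not past 2-fold, or of genes too low to be counted, 11 turned. Il1b in Mφ-like cells at 72 h (CCR2 KO over WT) went from -0.17 to 0.13 with equal cell weights, 0.32 at no more than 5% mitochondrial UMIs and 0.15 without cells over 2 times the median UMIs, and Il1rn there from 0.59 to -0.13 with the per-cell gate. Over time in Mφ-like cells Il18 in CCR2 KO went from 0.58 to -0.30 with equal cell weights, and Il1f9 in WT from -1.14 to 0.06 with each library clustered alone. Over time in WT neutrophil-like cells Il1b went from 0.14 to -0.07 with TMM scaling, Il1a from -0.82 to 0.32 with each library clustered alone and 0.19 with the Siglecf-high cluster added, and Il1f9 from 0.31 to -0.43 and -0.52 under the same alternatives. The cause of these moves was not tested. TMM scaling shifted every gene by between -0.21 and 0.20 on the log2 scale. No paired analysis was possible because each group was 1 library. Depth limits the genes of few UMIs, such as Il18bp and Casp1 in neutrophil-like cells of WT at 72 h, with 5 and 7 UMIs.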
